A study of Mus musculus with 48 samples.

Results

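The CCN family is a set of small secreted matricellular proteins, and 5 of its genes, Ccn1 to Ccn5, were followed here across mouse aorta in 3 models of defective elastic fibers. They are 5 of the 22180 genes that a probe set of the array names alone. For each gene the probe set with the highest mean over all arrays was used, and all 5 were among the 15337 genes tested. The study compared mice lacking Eln, which encodes elastin, Efemp2, which encodes fibulin-4, or Lox, which encodes lysyl oxidase, with wild-type mice of the same model. Each model gave knockout (KO) and wild-type (WT) samples of the ascending aorta (AA) and descending aorta (DA) before birth on embryonic day 17.5 (E17.5), and on postnatal day 1 (P1). This made 24 groups of 2 arrays, and every array held RNA pooled from 8 aortas. The Eln and Efemp2 mice were C57BL/6 and the Lox mice B6 albino. The labels call the mutants knockouts without describing the alleles, and give neither sex nor litter. Pooling leaves the spread between single animals unmeasured, so the p-values below rest on the spread between pools.

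CCN proteins are built from short modules shared with other extracellular proteins. One resembles the binding domain of insulin-like growth factor binding proteins, and others resemble repeats of von Willebrand factor and thrombospondin. They bind integrins, heparan sulfate proteoglycans and growth factors, and they tune cell adhesion, growth and matrix production more than they build the matrix. Ccn1 (Cyr61) and Ccn2 (Ctgf) are classic early targets of YAP and TEAD, of SRF and of TGF-beta, and they respond to stretch in vascular smooth muscle cells. Ccn3 (Nov) often restrains growth, Ccn4 (Wisp1) and Ccn5 (Wisp2) were named as Wnt-induced genes, and Ccn5, which lacks the C-terminal module of the others, limits smooth muscle growth and migration.

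Of the 5 genes, RefSeq's promoter table held a window for Ccn1. It is shown because the gene is a well known target of TEAD, of SRF and of TGF-beta signalling, and TEAD, SRF and the SMAD proteins of TGF-beta signalling bind DNA. The window covers 250 bases before to 50 bases after the start, chr3:145649936-145650235 on the minus strand of GRCm38.p6, read 5′ to 3′. Capitals mark the letters of a TEAD core, GGAATG on the opposite strand, 103 to 98 bases before the start, and of a SMAD element, CAGAC, at bases 4 to 8 counted with the start as base 1.
Ccn1: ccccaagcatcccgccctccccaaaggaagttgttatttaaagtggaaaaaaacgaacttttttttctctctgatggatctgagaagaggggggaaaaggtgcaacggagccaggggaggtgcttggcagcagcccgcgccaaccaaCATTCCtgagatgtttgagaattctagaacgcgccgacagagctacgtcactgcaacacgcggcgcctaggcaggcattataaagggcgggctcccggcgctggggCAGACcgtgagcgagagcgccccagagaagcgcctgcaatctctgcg
The motifs were searched on both strands. Of the 32851 promoter windows of 300 bases, 14.7% held GGAATG and 49.6% held CAGAC. The CArG box of SRF, which 1.63% of the windows held, was not matched in this window. The matches describe letters and say nothing of binding in these aortas.

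Values are log2 signals as the authors summarised them with RMA, and differences are KO less WT on that scale, so 1 means a doubling of the signal. A doubling on an array is not a doubling of molecules, and a level of 1 gene is not set against that of another. The deleted genes matched the labels: the Eln signal fell by 6.12 in Eln KO and the Lox signal by 2.66 in Lox KO. Efemp2 was not analysed, since no probe set named it alone. The median correlation between the arrays of a group was 0.980. Array medians ran from 3.71 to 5.35, and which arrays were normalized together is not given in the sources used here, so levels are compared within a model and stage. Both Eln WT DA arrays at P1, and 1 array of each Efemp2 WT group at P1 (replicate 2), had raised background. Replicate 1 of Eln WT DA at P1 and replicate 1 of Efemp2 WT AA at E17.5 had less elastin signal than the other array of their group (9.20 against 11.65 and 9.69 against 11.70). The smooth muscle markers, 6 in number, had a mean level of 8.79 to 10.79 on WT arrays. That level was also lower on these 2 arrays, at 8.98 against 9.87 and 9.52 against 10.16, and the same 2 had less Ccn1 and Ccn2 than the other array of their group. On replicate 2 of Efemp2 KO AA at E17.5 the mean level of 7 heart muscle markers was 10.04, against 7.80 on replicate 1. The WT arrays of that pair read 8.58 and 7.70. The part of smooth muscle and heart muscle signal in the CCN values was not tested. The aorta as a whole was measured: more cells of a type and more RNA per cell cannot be told apart.

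Averaged over the 4 pairs of each model, 4 of the 5 genes rose in Eln KO and 3 of 5 in each of the Efemp2 and Lox knockouts, and 0 fell. Ccn1 in Eln, and Ccn3 and Ccn4 in Efemp2 and Lox, did not pass. Among all genes tested, 2.74%, 3.14% and 0.561% rose in Eln, Efemp2 and Lox and 0.541%, 0.665% and 1% fell, by limma's moderated test with Benjamini-Hochberg adjustment over all genes and a threshold of 0.05. The balance of all genes depended on scaling: 86 rose and 154 fell in Lox KO as deposited, 137 and 72 after cyclic loess, and 165 and 31 after median centring. In Eln KO the counts were 421 and 83 as deposited and 243 and 140 after cyclic loess, and in Efemp2 KO 482 and 102 against 341 and 208. Ccn2 and Ccn5 passed in all 3 models, as did 0.222% of all genes. The median of the 5 differences was 0.65 in Eln, 0.55 in Efemp2 and 0.83 in Lox, beside 0.06, 0.04 and -0.09 over all genes tested. Of the 10 calls, 5 held under every processing alternative counted: those of Ccn2 in the 3 models and those of Ccn5 in Eln and Lox. A refit with the second probe set of Ccn2 in place of the first, given below, was not among these alternatives. In that refit Ccn2 did not pass in any model. Without the Eln DA P1 pair 2 of the 5 genes rose in Eln KO, beside 100 of the 15337 genes tested. With array background as a covariate 2 of the 5 rose in Eln KO, 1 in Efemp2 KO (Ccn2) and 2 in Lox KO. Of all genes tested, 136, 241 and 65 then rose in Eln, Efemp2 and Lox KO.

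**Figure D1:**
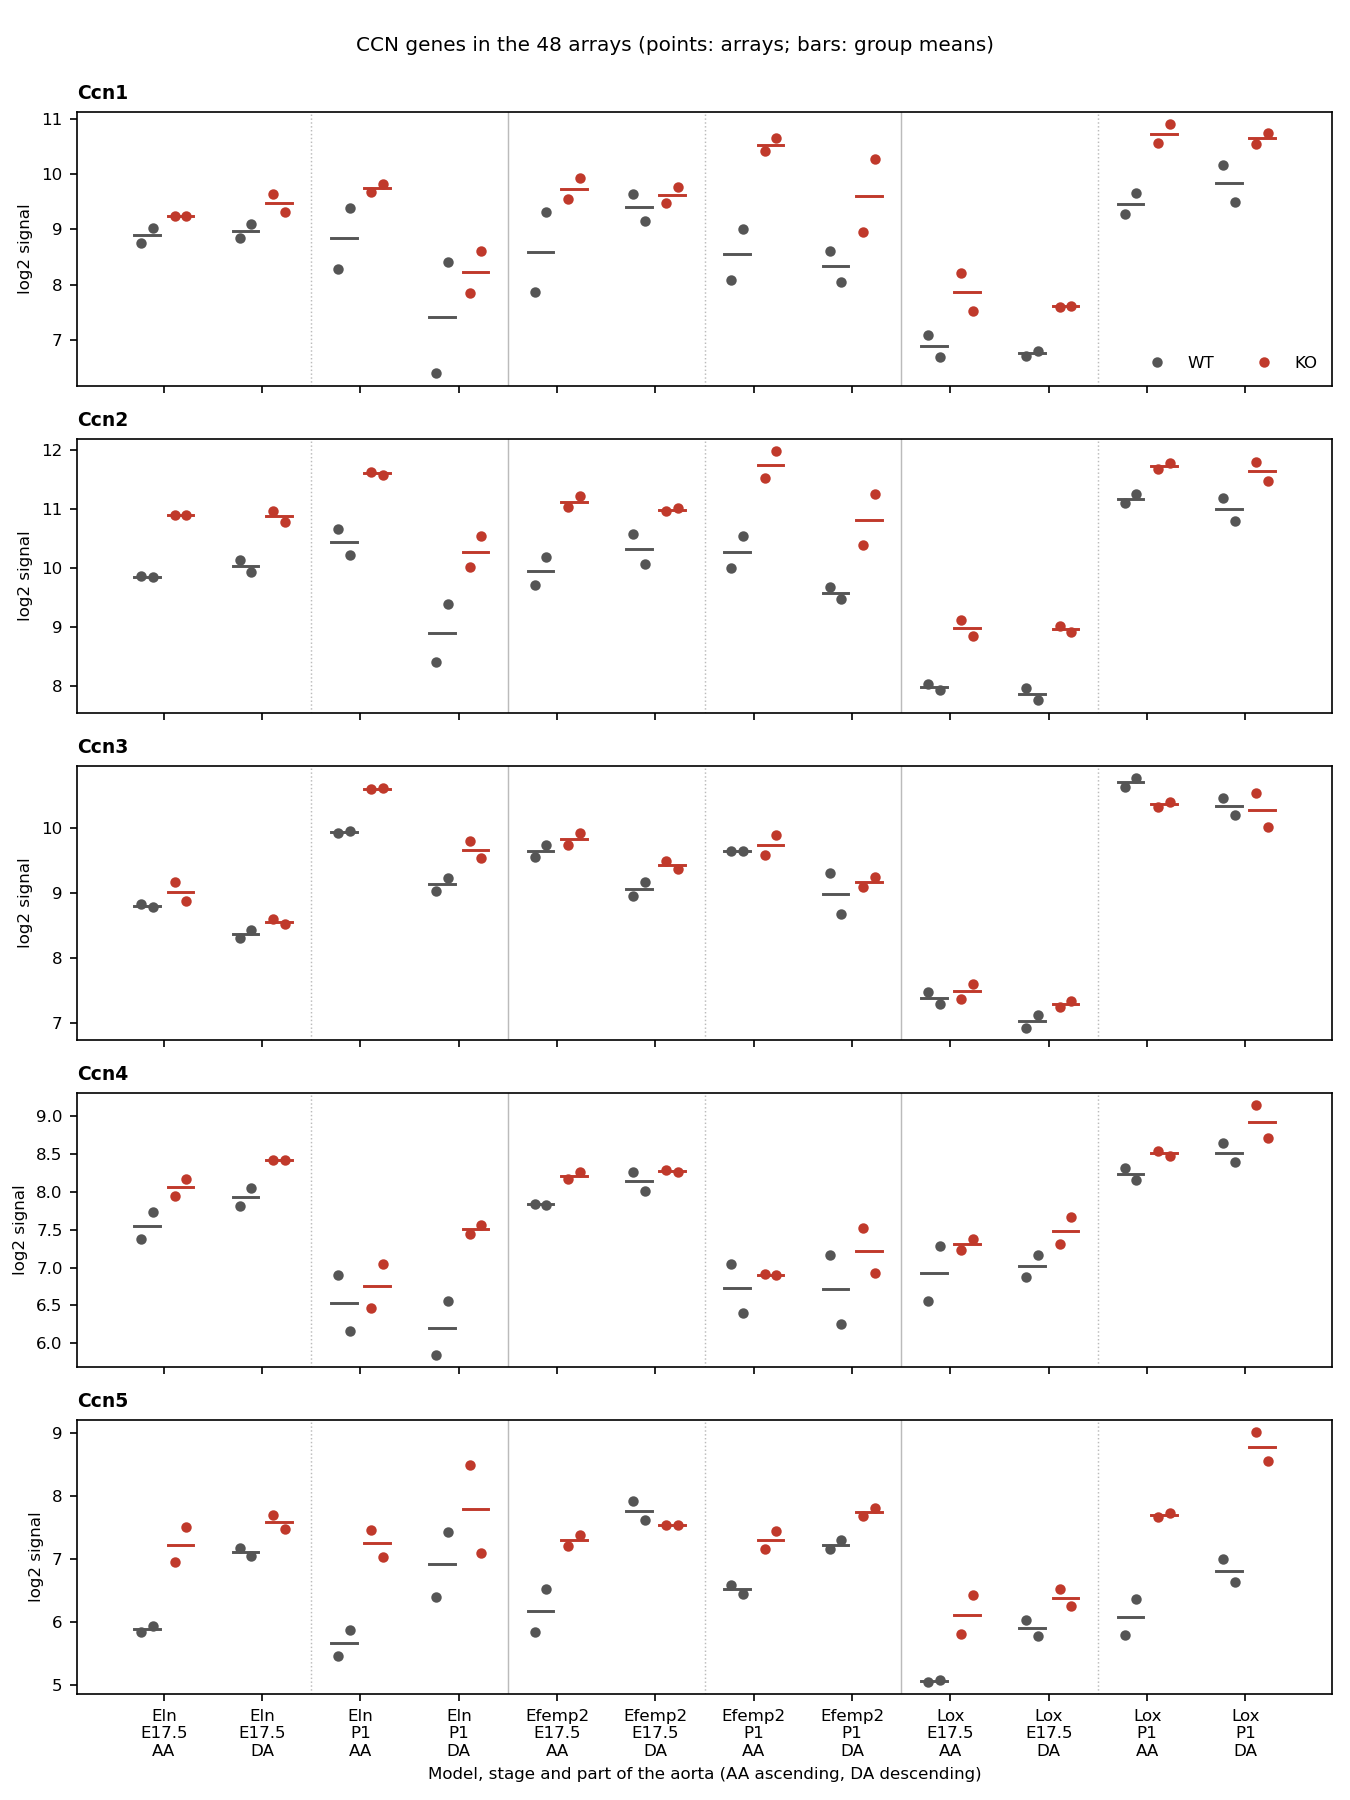
Log2 signal of the 5 CCN genes on each of the 48 arrays, with WT in grey and KO in red; points are arrays and bars are the means of the 2 arrays of a group. The Ccn2 points of KO lie above those of WT in all 12 pairs, while the Ccn3 points of Lox KO AA at P1 lie below. Vertical scales differ between genes, and array medians differ between models and stages.

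Ccn2, the family member most tied to fibrosis, showed the most regular pattern. The Eln arrays at E17.5 read 9.86 and 9.85 in WT AA against 10.91 and 10.90 in KO AA. In the descending part they read 10.14 and 9.94 in WT and 10.97 and 10.78 in KO. At P1 the AA values were 10.66 and 10.23 in WT and 11.64 and 11.58 in KO. The Ccn2 values of Eln KO thus lay about 1 unit above WT in these 3 pairs, with little scatter. In Eln DA at P1 the 2 WT arrays were apart, at 8.40 and 9.38, and the KO arrays were 10.01 and 10.55, still above both. The mean over the 4 pairs was 1.11 ± 0.14 (SE; 8 KO and 8 WT arrays), a 2.16-fold higher signal with an adjusted p of 2.27e-06.

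In Efemp2 KO, Ccn2 rose by 1.14 ± 0.14 over the 4 pairs (adjusted p = 2.29e-06 by limma). At E17.5 the AA arrays read 9.72 and 10.19 in WT and 11.04 and 11.22 in KO. The DA arrays of that stage were closer, 10.57 and 10.08 against 10.96 and 11.02. At P1 the AA pair had the largest difference of group means of all 12, with 9.999 and 10.54 in WT and 11.53 and 11.98 in KO. Both KO arrays were above both WT arrays in each of these pairs, and the same held in Efemp2 DA at P1, where WT read 9.68 and 9.47 and KO 10.38 and 11.25.

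In Lox KO the Ccn2 difference was 0.83 ± 0.14 (adjusted p = 0.000559 by limma). At E17.5, WT AA read 8.03 and 7.93 and KO AA 9.11 and 8.84. WT DA read 7.96 and 7.75 and KO DA 9.02 and 8.91. At P1 the AA values were 11.10 and 11.25 against 11.68 and 11.79, and the Lox pairs were therefore narrower after birth. The median of all genes was itself lower by 0.20 in KO AA and by 0.17 in KO DA at P1, so relative to it the differences there were 0.75 and 0.82. The last pair, Lox DA at P1, read 11.20 and 10.80 in WT and 11.80 and 11.48 in KO.

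Across the whole set, both Ccn2 KO arrays lay above both WT arrays in 12 of 12 pairs, which 0.0782% of all genes did. In 5 single pairs Ccn2 also passed the test alone. These were Eln AA at P1, Eln DA at P1 and Efemp2 AA at E17.5, where 1.15%, 19.8% and 0.548% of all genes rose, and Efemp2 AA and DA at P1, where 3.03% and 1.28% did. The difference in Eln DA at P1, 1.39, was 1.12 relative to the median of all genes, which was raised by 0.27 in that pair. A second probe set of Ccn2, with group means of 4.77 to 5.99 and a mean at the 58.7th percentile of probe sets that name 1 gene, gave 0.13, 0.17 and 0.25 in the 3 models. None of those passed, with adjusted p of 0.743, 0.635 and 0.455 by limma, and the KO mean was higher in 9 of 12 pairs, so the Ccn2 results rest on 1 of its 2 probe sets.

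Ccn1, an immediate early gene close in structure to Ccn2, rose in Efemp2 KO and Lox KO. The difference was 1.16 ± 0.24 in Efemp2 (adjusted p = 0.0027), a 2.23-fold higher signal, and 0.97 ± 0.24 in Lox (adjusted p = 0.0246), both by limma. In Eln it was 0.65 ± 0.24 with a 95% interval of 0.16 to 1.13, and it did not pass (adjusted p = 0.142 by limma). Its arrays scattered more than those of Ccn2, with a standard error of 0.24 against 0.14 for each model mean. In Eln WT DA at P1 the 2 arrays read 6.40 and 8.42, 2 units apart, and the KO arrays, 7.86 and 8.62, overlapped with them. Without replicate 2 of that WT group the Eln mean was 0.90 and passed (adjusted p = 0.00948 by limma), and without replicate 1 it was 0.39 and did not (adjusted p = 0.416).

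The widest Ccn1 pair was Efemp2 AA at P1, with 8.10 and 9.01 in WT and 10.41 and 10.65 in KO, a difference of 1.98 ± 0.47. It was the one pair in which Ccn1 passed alone (adjusted p = 0.0163 by limma). Efemp2 DA at P1 read 8.61 and 8.06 in WT and 8.96 and 10.27 in KO, where the KO arrays were both higher but 1.3 units apart, and the difference ran from 0.63 to 1.93 with 1 array left out. At E17.5 the Efemp2 AA arrays were 7.86 and 9.32 in WT, again apart, and 9.54 and 9.92 in KO, a difference of 0.42 to 1.87 with 1 array left out. In Efemp2 DA at E17.5, 9.64 and 9.16 in WT and 9.47 and 9.77 in KO overlapped.

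The Lox pairs of Ccn1 were more even. AA at E17.5 read 7.10 and 6.69 in WT and 8.21 and 7.54 in KO. DA at E17.5 read 6.72 and 6.81 against 7.61 and 7.62. AA at P1 read 9.28 and 9.65 against 10.55 and 10.90. DA at P1 read 10.17 and 9.496 in WT and 10.54 and 10.75 in KO. The call in Lox was close to the threshold all the same: it was lost when any 1 of 9 of the 16 arrays was left out, with values over the 16 of 0.89 to 1.06, and with array background as a covariate, at 0.76. Over all models, the Ccn1 KO mean was higher in 12 of 12 pairs, as for 0.711% of all genes, and the arrays did not overlap in 10 of 12, which 0.378% of all genes reached. The sign of the Eln DA pair at P1 turned to -0.22 with array background as a covariate and to -0.18 without the 2 WT arrays of low elastin. The Efemp2 call ended with that covariate, at 0.86 (adjusted p = 0.0638 by limma).

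Ccn3, for which growth restraint is described, rose in Eln KO alone among the 3 model tests. The difference in Eln was 0.40 ± 0.10 (adjusted p = 0.0118 by limma). It was 0.21 ± 0.10 in Efemp2 (95% interval 0.01 to 0.40, adjusted p = 0.274) and -0.01 ± 0.10 in Lox (-0.20 to 0.19, adjusted p = 0.985). The sign in Lox is set by scaling, since it was 0.004 after cyclic loess and 0.14 after median centring. The test of the difference between models, Lox less Eln, gave -0.41 ± 0.14 with an adjusted p of 0.172, so the Ccn3 effects were not shown to differ.

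The Ccn3 arrays in Eln AA at P1 were tight, 9.93 and 9.96 in WT and 10.61 and 10.62 in KO. In Eln DA at P1 they were 9.04 and 9.24 in WT and 9.80 and 9.54 in KO. The second of these passed as a single pair (difference 0.53 ± 0.19, adjusted p = 0.0395 by limma), in the comparison where 19.8% of all genes rose, and it was 0.27 relative to the median of all genes. The Eln call ended without the Eln DA P1 pair, at 0.36 (adjusted p = 0.140 by limma), after cyclic loess, at 0.27 (adjusted p = 0.101), and with array background as a covariate, at 0.33 (adjusted p = 0.173). Lox AA at P1 went the other way, with 10.64 and 10.77 in WT and 10.33 and 10.41 in KO. Both KO arrays were lower there, as were those of 54.6% of all genes, and relative to the median of all genes the difference was -0.14. Over the 12 pairs the Ccn3 KO mean was higher in 10 (5.34% of all genes reached that many) and both KO arrays were higher in 7 (3.14%). The signs in Efemp2 AA and DA at P1 turned after cyclic loess, to -0.22 and -0.06, and that in Lox DA at P1 turned to 0.18 after median centring.

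Ccn4 rose in Eln KO, by 0.63 ± 0.15 (adjusted p = 0.00851 by limma). In Efemp2 and Lox the differences were 0.30 ± 0.15 (95% interval 0.01 to 0.60, adjusted p = 0.297) and 0.38 ± 0.15 (0.08 to 0.68, adjusted p = 0.195). The Eln mean drew on 1 pair in particular, DA at P1, with 5.85 and 6.57 in WT and 7.44 and 7.57 in KO. That pair gave 1.30 ± 0.29, or 1.03 relative to the median of all genes (adjusted p = 0.0021 by limma). Its WT arrays are 2 of the 4 named above for raised background. Without the pair the Eln difference was 0.41 and did not pass (adjusted p = 0.422), and with array background as a covariate it was 0.39 (adjusted p = 0.302).

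At E17.5 the Ccn4 mean of Eln KO was higher by 0.51 in AA and by 0.49 in DA, and neither pair passed. WT AA read 7.37 and 7.73 and KO AA 7.95 and 8.18. WT DA read 7.82 and 8.05 and KO DA 8.43 and 8.43. At P1 in AA the Eln arrays overlapped, with 6.90 and 6.16 in WT and 6.47 and 7.05 in KO. The Ccn4 KO mean was higher in 12 of 12 pairs, as for Ccn1 and Ccn2 (0.711% of all genes), though the arrays were apart in 7 (3.14%). The 1 pair that passed alone was Eln DA at P1, where 19.8% of all genes rose. With array background as a covariate the KO mean was higher in 8 of 12, since Ccn4 was then lower in KO in Eln AA at P1, Efemp2 DA at E17.5, Efemp2 AA at P1 and Lox AA at P1, by 0.01 to 0.06.

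Ccn5, a restraint on smooth muscle growth, had the largest differences in Lox KO, 1.28 ± 0.16 over the 4 pairs, a 2.42-fold higher signal with an adjusted p of 9.11e-06 by limma. In Eln KO it rose by 1.06 ± 0.16 (adjusted p = 7.04e-05). In Efemp2 KO the difference was 0.55 ± 0.16 and its adjusted p, 0.04999, sat at the threshold. That last call was lost in 21 of 28 alternatives, including the removal of any 1 of 15 of the 16 arrays. Leaving out replicate 2 of Efemp2 WT AA at E17.5 was the exception, with 0.64 and an adjusted p of 0.0219.

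In Lox AA at P1, Ccn5 read 5.79 and 6.36 in WT and 7.66 and 7.72 in KO. DA at P1 was wider, 6.995 and 6.63 in WT and 9.001 and 8.54 in KO. Both pairs passed alone, with differences of 1.62 ± 0.32 and 1.96 ± 0.32 (adjusted p = 0.0136 and 0.00326 by limma), while 0.17% and 0.104% of all genes rose in them. Relative to the lowered median of all genes they were 1.82 and 2.13. At E17.5 the Lox AA arrays were 5.05 and 5.08 in WT and 5.81 and 6.42 in KO. The Lox DA arrays of that stage were 6.03 and 5.78 against 6.52 and 6.25, again apart but by less.

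The Eln pairs of Ccn5 were widest in the ascending aorta. AA at E17.5 read 5.84 and 5.94 in WT and 6.95 and 7.496 in KO. AA at P1 read 5.46 and 5.88 against 7.46 and 7.03, a pair that passed alone (1.58 ± 0.32, adjusted p = 0.00797 by limma). In DA at E17.5 the arrays were 7.18 and 7.05 in WT and 7.69 and 7.47 in KO. DA at P1 overlapped, 6.40 and 7.42 against 8.48 and 7.09, although its difference passed (0.87 ± 0.32, adjusted p = 0.0457) and was 0.61 relative to the median of all genes. With 1 of its 4 arrays left out, that difference ran from 0.18 to 1.57.

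Efemp2 held the 1 pair in which Ccn5 was lower in KO. DA at E17.5 read 7.92 and 7.61 in WT and 7.54 and 7.53 in KO, so both KO arrays were below both WT arrays, as for 18.3% of all genes in that pair. AA at E17.5 read 5.83 and 6.52 in WT and 7.21 and 7.38 in KO. At P1 the AA values were 6.59 and 6.44 against 7.16 and 7.44, and the DA values 7.15 and 7.29 against 7.68 and 7.80, higher in KO in both. In all, the Ccn5 KO mean was higher in 11 of 12 pairs (2.23% of all genes reached that) and the KO arrays were all above in 10 (0.378%). Of the 12 calls that the 5 genes made in single pairs, 11 were lost when 1 of the 4 arrays was left out; the exception was Ccn2 in Eln DA at P1.

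**Figure D2:**
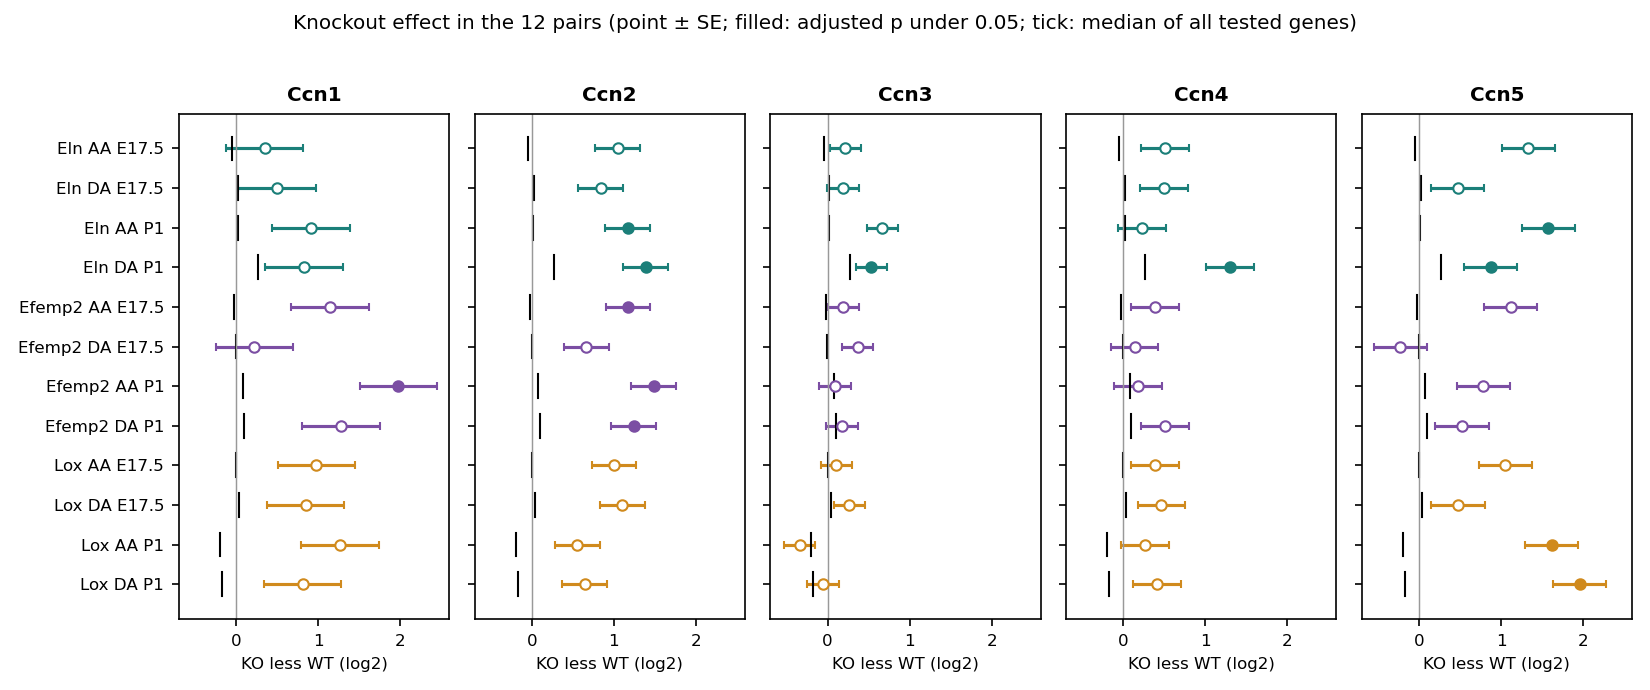
KO less WT in log2 units for the 5 CCN genes in the 12 pairs of model, part of the aorta and stage; points are differences of the means of 2 arrays, whiskers are standard errors, filled points passed the test, and black ticks mark the median of all tested genes. Ccn2 lies between 0.55 and 1.48 in all pairs, and Ccn5 between -0.23 and 1.96.

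Whether the effects differed between models, parts of the aorta or stages was tested directly. The 12 contrasts counted also include the WT difference of DA less AA at P1 less that at E17.5, given below, which holds no KO effect. Over 5 genes they made 60 tests, of which 0 passed after adjustment over all genes by limma and 10 had an unadjusted p under 0.05. In these contrasts up to 5.24% of all genes passed, in the test of DA against AA within Eln. Over the 3 models, the Ccn5 effect in DA less that in AA was -0.57 ± 0.19 (adjusted p = 0.175). It was 0.52 ± 0.19 at P1 less E17.5 (adjusted p = 0.177) and 0.73 ± 0.23 for Lox less Efemp2 (adjusted p = 0.271). After median centring the stage difference of Ccn5 passed, at 0.68 (adjusted p = 0.0331), and without the 2 WT arrays of low elastin its difference within Eln, DA less AA, passed at -1.04 (adjusted p = 0.0409).

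In wild-type aorta, 2 of the 5 genes differed between the parts, and in opposite directions. Ccn5 was higher in DA by 1.06 ± 0.13 over the 6 comparisons of model and stage, a 2.08-fold higher signal (adjusted p = 1.09e-06 by limma). Ccn3 was lower in DA, -0.53 ± 0.08 (adjusted p = 1.36e-05), so its signal was 1.45-fold higher in AA. Among all genes, 4.64% were higher and 3.96% lower in DA, or 711 and 607 genes, and after median centring 394 and 1275. Ccn3 and Ccn5 passed in the same direction under each of the 36 alternatives. The values of Ccn1 and Ccn4 were -0.09 ± 0.19 and 0.12 ± 0.12 (adjusted p = 0.842 and 0.601), and the sign of Ccn1 turned to 0.18 without the Eln P1 comparison.

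The Ccn5 arrays of WT did not overlap in any of the 6 comparisons, which 0.398% of all genes reached. In Lox at E17.5, for example, WT AA read 5.05 and 5.08 and WT DA 6.03 and 5.78. The group means were the most apart in Efemp2 at E17.5, where the arrays read 5.83 and 6.52 in AA against 7.92 and 7.61 in DA. The Ccn3 arrays were likewise apart in 6 of 6, with DA below (0.424% of all genes). In Efemp2 at P1 the Ccn3 values were 9.65 and 9.66 in AA and 9.31 and 8.67 in DA. At E17.5 the mean over the 3 models was 1.22 ± 0.19 for Ccn5 and -0.46 ± 0.11 for Ccn3 (adjusted p = 6.85e-05 and 0.0111 by limma), where 2.21% of all genes were higher and 1.34% lower.

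At P1 the Ccn5 and Ccn3 means were 0.90 ± 0.19 and -0.61 ± 0.11 (adjusted p = 0.00257 and 0.000627 by limma), beside 4.96% of all genes higher and 4.72% lower. Without the Eln comparison at P1 the Ccn5 value was 0.72 and did not pass (adjusted p = 0.120), and that of Ccn3 was -0.51 (adjusted p = 0.0435). Ccn2 was lower in DA at P1, -0.81 ± 0.16 (adjusted p = 0.00149), and 0.14 ± 0.16 at E17.5 (adjusted p = 0.839). The low Ccn2 value at P1 came largely from Eln, where WT AA read 10.66 and 10.23 and WT DA 8.40 and 9.38. Without Eln it was -0.44 and did not pass (adjusted p = 0.336 by limma), and the test of P1 less E17.5 gave -0.95 ± 0.22 (adjusted p = 0.078). After median centring this test of P1 less E17.5 passed, at -1.10 (adjusted p = 0.0306 by limma). With 1 array left out its value ran from -1.12 to -0.79.

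Over both stages the Ccn2 value was -0.33 ± 0.11 (adjusted p = 0.0593 by limma), and it passed after median centring at -0.43 (adjusted p = 0.0147). It also passed by limma with trended, robust variances (adjusted p = 0.0449) and with a replicate block (adjusted p = 0.0497). With 1 array left out the value ran from -0.41 to -0.25.

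In KO aorta the order of the group means was that of WT for Ccn3 and Ccn5. The Ccn5 mean was higher in DA in 6 of 6 KO comparisons, which 9.99% of all genes reached, but its arrays were apart in 3 of them (23% of all genes). The Ccn3 mean was lower in 6 of 6 (2.65%), with arrays apart in 5 (1.13%). Ccn4, which did not pass in WT, was higher in DA in 6 of 6 KO comparisons with arrays apart in 5 (3.56%). The WT and KO comparisons use different arrays, but the KO effects above use both.

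Markers of other cells moved with the part of the aorta. In WT DA, 5 of 6 tested neuron and Schwann markers were higher, with a list median of 1.13. Over all models and stages the list's mean level ran from 4.29 to 5.38 on WT AA arrays and from 4.78 to 8.24 on WT DA arrays. At P1 it overlapped in Eln (4.68 and 5.01 in AA, 5.25 and 4.92 in DA). It also overlapped in Efemp2 at P1 (4.98 and 4.91 in AA, 4.78 and 4.95 in DA). In the other WT comparisons both DA arrays were above both AA arrays. Of the macrophage markers 3 of 8 and of the neutrophil markers 3 of 6 were higher in WT DA, and of the smooth muscle markers 1 of 6 was higher and 1 lower. The neutrophil markers were S100a8, S100a9 and Ly6g, the last with a mean of 3.51 and below 4.94 on 46 of 48 arrays. Of the brown fat markers 2 of 7 were higher (Fabp4 and Cebpa, list median 0.44), of the heart muscle markers 2 of 7 were higher and 2 lower, of the cartilage markers 1 of 6 was higher and 1 lower, of the endothelial markers 1 of 8 was higher, and the fibroblast marker Dpt was lower, of 7. The part of these cells in the Ccn3 and Ccn5 results was not tested.

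**Figure D3:**
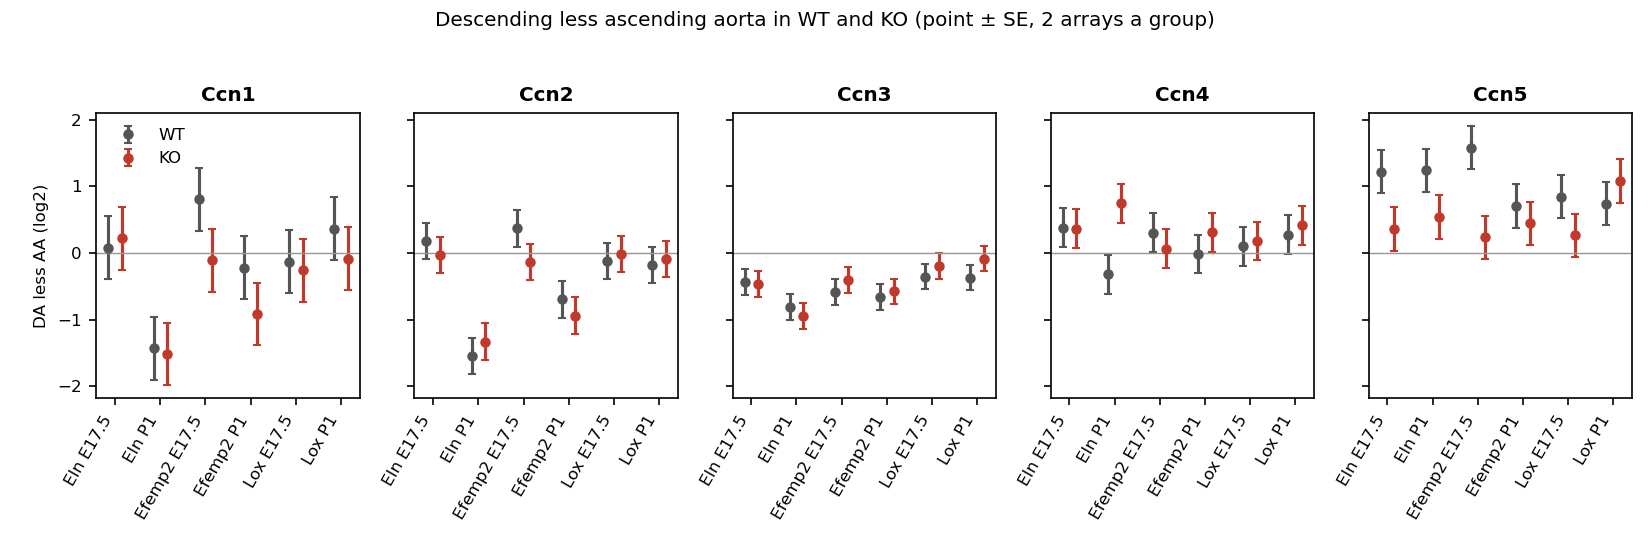
Descending less ascending aorta in log2 units for the 5 CCN genes, in WT (grey) and KO (red) of each model and stage; points are differences of the means of 2 arrays and whiskers are standard errors. The Ccn5 points of both genotypes lie above 0 and the Ccn3 points below 0 in all 6 comparisons.

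The members did not share 1 profile. Over the 12 pair differences, Pearson's r was 0.49 between Ccn1 and Ccn2, 0.51 between Ccn2 and Ccn3 and -0.34 between Ccn1 and Ccn3. Ccn5 had r of -0.32 to 0.21 with the others. These are descriptions over 12 pairs of groups, in 3 models. The genes whose 12 differences ran most like those of Ccn1 were Sgms2 (r = 0.91), S1pr3 (0.90), a receptor for sphingosine-1-phosphate, and Mob3a (0.89). For Ccn2 they were Abr (0.97), the microRNA gene Mir145a (0.95), whose product is abundant in smooth muscle, and Ano6 (0.95). For Ccn3 they were Sh3rf2 (0.93), Zdhhc23 (0.92) and Lca5l (0.91), and for Ccn4 Zfp846 (0.97), Hyal2 (0.96), a hyaluronidase, and Cdkn2aipnl (0.95). Ccn5 had looser neighbours, Kank4 (0.79), Slc8a2 (0.79) and Gbp8 (0.74). For comparison, 99% of all genes had an r under 0.85 with Ccn2 and under 0.45 with Ccn5.

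Ccn6, the family gene outside the 5, had group means of 3.61 to 5.10. Its differences were 0.05 ± 0.13, -0.01 ± 0.13 and -0.20 ± 0.13 in Eln, Efemp2 and Lox, and it passed in none (adjusted p = 0.903, 0.99 and 0.516 by limma).

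Genes around the family were grouped by role, beginning with receptors. Of 12 CCN receptors and coreceptors, 4 rose in each of Eln and Efemp2 KO, 0 rose in Lox KO and 0 fell. The list medians were 0.30, 0.32 and 0.18. Itga5, the fibronectin receptor subunit, rose by 0.61 in Eln (adjusted p = 0.000687) and 0.86 in Efemp2 (adjusted p = 5.91e-06, both limma). Itgav, which pairs with several beta subunits, rose by 0.39 and 0.56. Its partners Itgb5 and Itgb3 rose in Eln KO, by 0.74 and 0.59. In Efemp2 KO the leukocyte integrin genes Itgam and Itgb2 rose by 1.33 and 0.83. Itgam is also a macrophage marker, and 5 of 8 macrophage markers rose in Efemp2 KO, where the mean level of the list ran from 7.56 to 8.14 in KO and 6.26 to 7.54 in WT. The part of these cells in the CCN and integrin values was not tested. The endothelial list fell in 4 of 8 genes in Efemp2 KO, with levels of 6.31 to 7.83 in KO and 7.12 to 8.26 in WT. In Eln KO 0 of 8 markers of each of these lists rose, and 1 endothelial marker fell. There, 2 of 6 neuron and Schwann markers and 3 of 6 cartilage markers rose, Acan among them, as did 1 of 6 smooth muscle markers, Smtn, while 2 of 7 brown fat markers, Pparg and Fabp4, fell (list median -0.50). In Efemp2 KO the neutrophil markers S100a8 and S100a9 rose and Ly6g fell, of 6, the fibroblast marker Dpt fell, of 7, and of the cartilage markers Acan rose. Ly6g, with a mean of 3.51, was below the filter of 4.94 on 46 of 48 arrays. In Lox KO 1 macrophage marker rose and 1 of 7 brown fat markers fell. The part of these cells was likewise not tested.

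Of 8 factors and matrix proteins that CCN proteins bind, 3 rose and 1 fell in Eln KO, 2 rose in Efemp2 KO and 1 fell in Lox KO. Fibronectin, Fn1, rose by 0.52 in Eln and 0.52 in Efemp2 (adjusted p = 0.00127 and 0.00124 by limma). Aggrecan, Acan, rose by 0.51 and 0.93. The small proteoglycan genes Bgn and Dcn went opposite ways in Eln KO, 0.34 and -0.39, and Dcn is a fibroblast marker of a list in which 3 of 7 genes fell there and 1, Pi16, rose. The growth factor gene Bmp2 fell by 0.57 in Lox KO (adjusted p = 0.00398 by limma).

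Of 12 Hippo pathway genes tested, 3 rose in Eln KO, namely Wwtr1, which encodes the YAP paralogue TAZ, Tead1 and the kinase gene Lats2, by 0.35, 0.38 and 0.45. In Efemp2 KO 1 rose, Tead1, by 0.38, and in Lox KO 0 did. Among 18 tested genes of a YAP target signature from which Ccn1 and Ccn2 were taken out, 4 rose in each of Eln and Efemp2 KO and 0 in Lox KO. The medians were 0.17, 0.19 and 0.01. Fjx1 rose by 1.01 and 0.45 and Igfbp3 by 0.54 and 0.96 in Eln and Efemp2. Crim1, itself a protein with an insulin-like growth factor binding module, and Lats2 rose in Eln KO, by 0.45 and 0.45. Ankrd1, a stretch-responsive gene, rose in Efemp2 KO, by 1.39 ± 0.32 (adjusted p = 0.00747), as did Myof, by 0.41, and Ankrd1 was 1.14 ± 0.32 in Lox (adjusted p = 0.0574 by limma).

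Immediate early and actin-linked genes of the SRF axis, 11 in all, rose in 0, 4 and 4 cases in Eln, Efemp2 and Lox KO. Egr1, an early response transcription factor, rose by 1.19 ± 0.22 in Lox (adjusted p = 0.00213 by limma) and 0.77 ± 0.22 in Efemp2 (adjusted p = 0.0397), and was 0.56 ± 0.22 in Eln (adjusted p = 0.175). Fhl2 rose by 0.63 in Efemp2 and 0.57 in Lox. Junb and Tpm1 rose in Efemp2 KO, by 0.70 and 0.30, and Fos and Fosb in Lox KO, by 0.68 and 0.53. Of 11 TGF-beta ligands, receptors, SMADs and targets, 3 rose with Eln missing, 1 with Efemp2 missing and 0 with Lox missing. These were the target Pmepa1 (0.99) and the SMAD inhibitor gene Skil (0.48) in Eln, and the ligand gene Tgfb3 in Eln (0.45) and Efemp2 (0.50).

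Of 12 other matricellular genes tested, 4 rose with Eln missing, 5 with Efemp2 missing and 1 with Lox missing, with medians of 0.27, 0.25 and 0.02. Thbs1, which encodes an activator of latent TGF-beta, rose in all 3 models, by 0.96 ± 0.17, 2.06 ± 0.17 and 1.41 ± 0.17 (adjusted p = 0.000451, 8.28e-10 and 4.32e-06 by limma). Thbs2 rose by 0.78 and 0.47, Tnc, the tenascin-C gene, by 0.67 and 0.41, and Smoc2 by 0.67 and 0.47 in Eln and Efemp2. Thbs4 rose in Efemp2 KO, by 0.57.

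Among 12 other genes whose products carry an insulin-like growth factor binding module, 5 rose in Eln KO, 3 rose and 1 fell in Efemp2 KO, and 2 rose in Lox KO. Igfbp2 rose in all 3, by 2.02 ± 0.17, 2.32 ± 0.17 and 1.48 ± 0.17, larger differences than those of any CCN gene (adjusted p = 2.27e-09, 8.88e-11 and 4.22e-06 by limma). Esm1, an endothelial secreted proteoglycan gene, rose in Lox KO, by 1.06. Igfbp3 and Crim1 are given above with the YAP targets. Of the 52 calls of genes named from these lists, 20 held under every alternative. They were those of Itgb5, Fjx1, Pmepa1, Thbs2 and Tnc in Eln, of Itga5, Itgav, Itgam, Itgb2, Fn1, Acan and Igfbp3 in Efemp2, of Egr1 and Esm1 in Lox and of Thbs1 and Igfbp2 in all 3. Those of Wwtr1, Crim1, Skil, Itgav and Tead1 in Eln were lost in 17 to 20 of 28 alternatives. That of Tead1 in Efemp2 was lost in 18 of 28 and that of Fos in Lox in 15 of 27. Without the Eln DA P1 pair 14 of the 22 Eln calls did not pass.

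**Figure D4:**
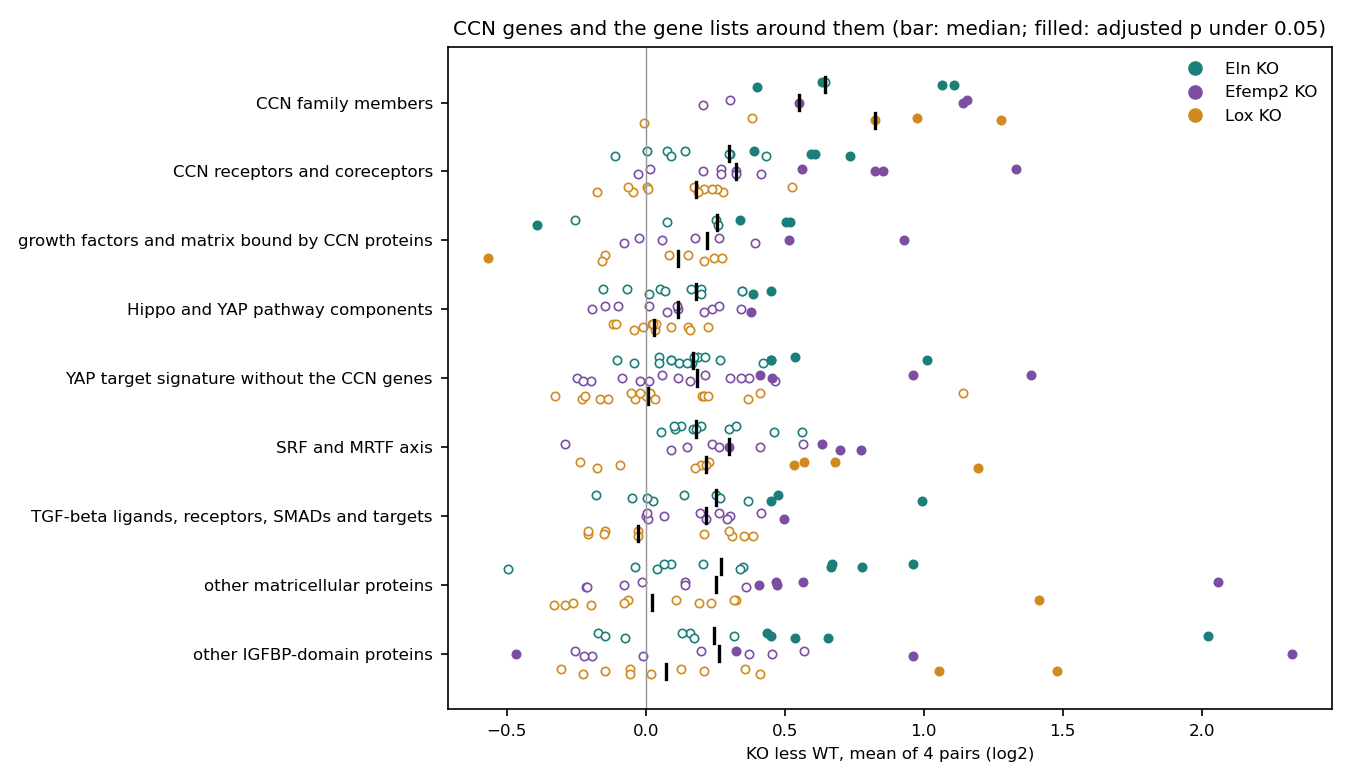
KO less WT (log2), as the mean of the 4 pairs of a model, for Ccn1 to Ccn5 and 8 lists of related genes. Ccn6 is not shown. Points are genes, black bars list medians, and filled points passed the test. The CCN medians of 0.65, 0.55 and 0.83 in Eln, Efemp2 and Lox lie to the right of those of the other lists, whose highest is 0.32.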

How the data were processed

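Gene expression in pooled mouse aortas was measured on 48 arrays after whole-transcriptome amplification from 5 ng of RNA, per the labels' protocols. The deposited values are log2 signals that the authors summarised with RMA in Affymetrix Expression Console, per the submitters' processing notes; versions, array name and genome build are not given in the sources used here. Of 41345 probe sets, 23521 carry 1 gene symbol, 1814 several and 16010 none in the platform annotation; 23328 matched RefSeq by gene ID. The probe set with the highest mean stood for each of 22180 genes, and 15337 genes had a group mean of at least 4.94 and were tested.

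One mean per group was fitted over all 24 groups with limma 3.58.1 in R 4.3.3 (24 residual degrees of freedom), with empirical Bayes variances and Benjamini-Hochberg adjustment over all genes tested in each comparison. Errors are standard errors. The number of arrays, 2 per group, limits the precision. Alternatives changed the filter, the probe set rule, the scaling, the variance model, the arrays fitted and the replicate block, and left out 1 array at a time; those on array background, low elastin and the Eln DA P1 pair were chosen after seeing the data. From each list of related genes, all that passed in any model are named where they numbered 6 or fewer, and otherwise the 4 with the largest absolute mean difference over the 3 models; for each member the 3 genes most alike in the 12 pair differences are named. The members and lists were chosen with earlier results of these data known, so counts over them are descriptions.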

Additional observations from a re-analysis of the deposited data

Results flagged for a closer look

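In 5 comparisons both KO arrays lay above both WT arrays in 1 pair and below them in another pair that differed in model, part or stage alone; by limma none of these differences passed after adjustment over all genes. Ccn5 in Efemp2 DA at E17.5 (-0.23) was the lower member of 4 of them. The difference from Efemp2 AA at E17.5 (1.12) was 1.34 ± 0.46 (AA less DA, SE, adjusted p = 0.996). Against Eln DA at E17.5 (0.47) it was 0.70 ± 0.46 (Eln less Efemp2, adjusted p = 0.999), against Lox DA at E17.5 (0.48) it was -0.70 ± 0.46 (Efemp2 less Lox, adjusted p = 0.993), and against Efemp2 DA at P1 (0.52) it was -0.75 ± 0.46 (E17.5 less P1, adjusted p = 0.534). For Ccn3, Eln AA at P1 (0.67) less Lox AA at P1 (-0.34) was 1.01 ± 0.27 (adjusted p = 0.0701), and the Lox value is -0.14 relative to the median of all genes in that pair.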

How the results depend on the processing

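Over the alternatives other than leaving out an array, 1217 of 1293 values of the CCN genes kept their direction and side of the threshold; with 1 array left out 837 of 928 did. Where a value below changed, the cause was not tested.

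In Eln, Ccn3 was 0.27 after cyclic loess, 0.33 with background as covariate and 0.36 when the Eln DA P1 pair was left out, and Ccn4 was 0.39 and 0.41 in the last of these settings; genes higher numbered 243, 136 and 100, and genes lower 140 after loess. In Efemp2, Ccn1 was 0.86 with the covariate. Ccn5 was 0.55 without a filter, 0.45 after loess, 0.54 with the covariate, 0.55 without the 4 high-background arrays and 0.46 without the 2 low-elastin arrays. Genes higher in Efemp2 numbered 177 with its own arrays alone and 241 with the covariate, and genes lower 208 after loess, 50 after median centring, 19 with its own arrays and 267 without the 4 arrays. In Lox, Ccn1 was 0.76 with the covariate, and Ccn3 turned to 0.0036 after loess and 0.14 after median centring. Genes higher in Lox numbered 137 after loess, 165 after centring and 186 with its own arrays; genes lower numbered 72, 31 and 581 there, 268 with the covariate and 320 without the 4 arrays.

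Signs turned in single pairs. With the covariate, Ccn4 was -0.036 in Eln AA P1, -0.013 in Efemp2 DA E17.5, -0.061 in Efemp2 AA P1 and -0.017 in Lox AA P1, and Ccn1 was -0.22 in Eln DA P1 (-0.18 without the low-elastin arrays). After loess, Ccn3 was -0.22 in Efemp2 AA P1 and -0.058 in Efemp2 DA P1, and Ccn4 -0.13 in Efemp2 AA P1. Without the 4 arrays, Ccn4 was -0.14 in Efemp2 AA P1 and Ccn3 -0.14 in Efemp2 DA P1. Ccn3 in Lox DA P1 was 0.18 after centring. In WT, DA less AA, Ccn1 was 0.18 without the Eln P1 comparison, and Ccn2 was -0.43 after centring and -0.33 with trended, robust variances, past the threshold in both; Ccn2 in Eln at E17.5 was -0.050 as the mean of its probe sets. Genes higher in WT DA numbered 439 under the stricter filter and 394 after centring; genes lower numbered 1275 after centring, 360 with WT arrays alone and 283 without Eln P1. Of the differences between effects, 2 passed after centring and 1 without the low-elastin arrays.

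With 1 array left out, model means ran from 0.39 to 0.90 (Ccn1, Eln), 0.89 to 1.06 (Ccn1, Lox), -0.069 to 0.059 (Ccn3, Lox) and 0.46 to 0.64 (Ccn5, Efemp2). Pairs ran from 0.18 to 1.57 (Ccn5, Eln DA P1), 0.42 to 1.87 (Ccn1, Efemp2 AA E17.5), 0.63 to 1.93 (Ccn1, Efemp2 DA P1), -0.016 to 0.46 (Ccn1, Efemp2 DA E17.5), -0.18 to 1.83 (Ccn1, Eln DA P1), -0.065 to 0.25 (Ccn3, Efemp2 AA P1), -0.14 to 0.50 (Ccn3, Efemp2 DA P1), -0.0086 to 0.22 (Ccn3, Lox AA E17.5), -0.31 to 0.20 (Ccn3, Lox DA P1), -0.14 to 0.50 (Ccn4, Efemp2 AA P1) and -0.14 to 0.60 (Ccn4, Eln AA P1). WT location ran from -0.26 to 0.080 (Ccn1), -0.41 to -0.25 (Ccn2) and -0.38 to 0.016 (Ccn2, Lox P1). Genes higher ran from 272 to 697 in Eln, 317 to 722 in Efemp2 and 43 to 110 in Lox, and genes lower from 52 to 175, 49 to 176 and 72 to 191; genes lower in WT DA ran from 431 to 1163.

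Replicate numbers showed no steady pairing of the samples. Deviations of same-numbered KO and WT arrays correlated at -0.23 to 0.20, and those of AA and DA at -0.25 to 0.36. Each kind was over 0.1 in 3 of 12 cases and as far on the negative side in 2 and 3. Whether AA and DA pools came from the same aortas is not given in the sources used here. These correlations, from 2 arrays a group, cannot decide it. With the number as a replicate block, Ccn5 in Efemp2 was 0.55 (adjusted p = 0.0853 by limma) and Ccn2 in WT DA less AA was -0.33 (adjusted p = 0.0497). Without the 4 high-background arrays the Eln and WT means could not be fitted. Groups of 2 arrays limit what single pairs can show. So do raised background on 4 Eln and Efemp2 WT arrays and higher background in Lox WT than Lox KO at P1.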
